A study of Mus musculus with 12 samples.

Results

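Histones are the proteins around which DNA is wound, and this section describes the core histone genes, those for H2A, H2B, H3 and H4. The RNA came from MC3T3 sc4, a clonal line of pre-osteoblasts from mouse calvaria. The cells had been kept for 4 days in osteogenic medium with ascorbic acid and beta-glycerophosphate. There were 12 arrays, with 4 in each of 3 groups: 20 µM SAHA for 6 h, 20 µM SAHA for 2 h, and the solvent DMSO. SAHA (vorinostat) inhibits the zinc-dependent histone deacetylases, and the title names osteoblast maturation and the histone 4 epigenome. Genes were chosen by symbol, as every mouse gene that begins with H2ac, H2bc, H3c, H4c, H2az, H2ax, H3f or Macroh2a and had a probe detected (detection p under 0.01) on at least 4 of the 12 arrays. This gave 48 of the 9153 genes tested. Of these, 42 are replication-dependent genes (15 H2A, 10 H2B, 8 H3 and 9 H4) and 6 are variant genes. A further 10 genes of the rule had a named probe but too few detections, of which H3c8 (2 arrays) and H4c3 (1 array) came nearest, while Macroh2a2, Macroh2a3, H2ac1, H2bc1, H2bc3, H2bc18, H4c2 and H4c14 were detected on none. Just inside the threshold were H2bc8 and H3c3 (7 arrays each), H2ac6 and H4c4 (8 each) and H2ac4 (11), and the other members were detected on all 12.

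Replication-dependent histone genes lie in clusters, have no introns and are transcribed mainly in S phase, when new DNA has to be packed. Their mRNAs end in a stem-loop bound by the protein Slbp rather than in a poly(A) tail, although some of them are known to give polyadenylated transcripts as well in cells that have left the cycle. Variant histones are made from single genes outside the clusters in all phases of the cycle, mostly as polyadenylated mRNAs, and take over particular places in chromatin. The labelling here was primed with oligo(dT), so a value reports the transcripts that such priming copied, and whether that includes forms without a poly(A) tail was not tested. Genes of one class share much of their coding sequence, so 1 probe can read several of them, and their probes are not independent.

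All 3 groups were collagenase-digested for 40 min before harvest with SAHA or solvent still present, so the exposures ran longer than their names. The labels do not give the time that the controls spent in DMSO, and the treatment description mentions 2 h alone. Hours in SAHA and hours in culture cannot be told apart. The labels do not say whether the 4 RNA samples in a group are separate cultures. All p-values therefore reflect array-to-array spread, which may be technical. Detected probes numbered 15264 to 15705 after 6 h, 14904 to 15982 after 2 h and 15610 to 16065 in DMSO. Of 10 osteoblast marker genes 8 were measured, without Spp1 and Runx2. The brightest by mean, Col1a1, Col1a2 and Ibsp, had log2 changes at 6 h of 0.07, -0.05 and 0.08 without passing the test. Sp7, Alpl and Panx3, named after their values were seen, were lower at 6 h. Of the 8 markers 3 were called lower at 6 h and 5 did not pass, and the lowest fitted log2 change was -4.23. The summed level of the measured osteoblast markers was 72795 to 77480 after 6 h, 76820 to 80241 after 2 h and 84289 to 93538 in DMSO, and its part in the histone values was not tested. No adipocyte (0 of 5) or endothelial (0 of 4) marker was measured. The measured chondrocyte markers (2 of 5) summed to 3218 to 3735 after 6 h, 3267 to 3748 after 2 h and 3737 to 4187 in DMSO. The macrophage and blood markers (2 of 6, without Ptprc and Adgre1) summed to 210 to 264, 267 to 292 and 297 to 372 in the same order, and the muscle markers (3 of 5, without Myod1) to 279 to 320, 250 to 288 and 310 to 353.

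Replication-dependent core histone genes were higher in SAHA at both times, and none was called lower in any comparison. At 6 h 31 of 42 rose against DMSO, and 11 did not pass the test. Over all 9153 genes 38.9% were called higher in that comparison and 77.4% were called in either direction (limma, adjusted p under 0.05). At 2 h 31 of 42 rose and 11 did not pass, where 27.8% of all genes were called higher and 58.6% were called. Their median log2 change was 0.86 at 6 h and 0.51 at 2 h, beside medians over all genes of 0.01 at 6 h and -0.02 at 2 h. With genes undetected in DMSO set to their lower bounds these medians were 0.80 and 0.50. In 28 of the 42 all 4 arrays of the 6 h group lay above all 4 DMSO arrays, and in 30 all 4 arrays of the 2 h group did, where 35.9% and 25.5% of all genes did so. Of the 37 members detected on all 12 arrays 28 rose at 6 h and 29 at 2 h. In RNA from a whole culture, more cells that make a transcript and more RNA per cell cannot be told apart.

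The counts differed by class, and no test between classes was made. H2B genes rose in 10 of 10 at 6 h and at 2 h, with median log2 changes of 1.14 and 0.86. H2bc8 among them passed the filter through the SAHA arrays alone, and the 9 H2B genes detected on all 12 arrays rose at both times. H3 genes rose in 7 of 8 at each time, with medians of 0.85 and 0.64. H4 genes rose in 9 of 9 at 6 h and 8 of 9 at 2 h, with medians of 0.95 and 0.53. H2A genes rose in 5 of 15 at 6 h and 6 of 15 at 2 h, with medians of 0.20 and 0.25, beside 38.9% and 27.8% of all genes called higher. Of the 13 H2A genes detected on all 12 arrays, which leave out H2ac6, 4 rose at 6 h and 5 at 2 h. Members of the large Hist1 cluster on chromosome 13 rose in 26 of 35 cases at 6 h and 28 of 35 at 2 h. These 35 include H2ac6 and H2bc8, which could only be members by being higher in SAHA. Members of the Hist2 cluster on chromosome 3 rose in 5 of 7 at 6 h and 3 of 7 at 2 h.

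**Figure D1:**
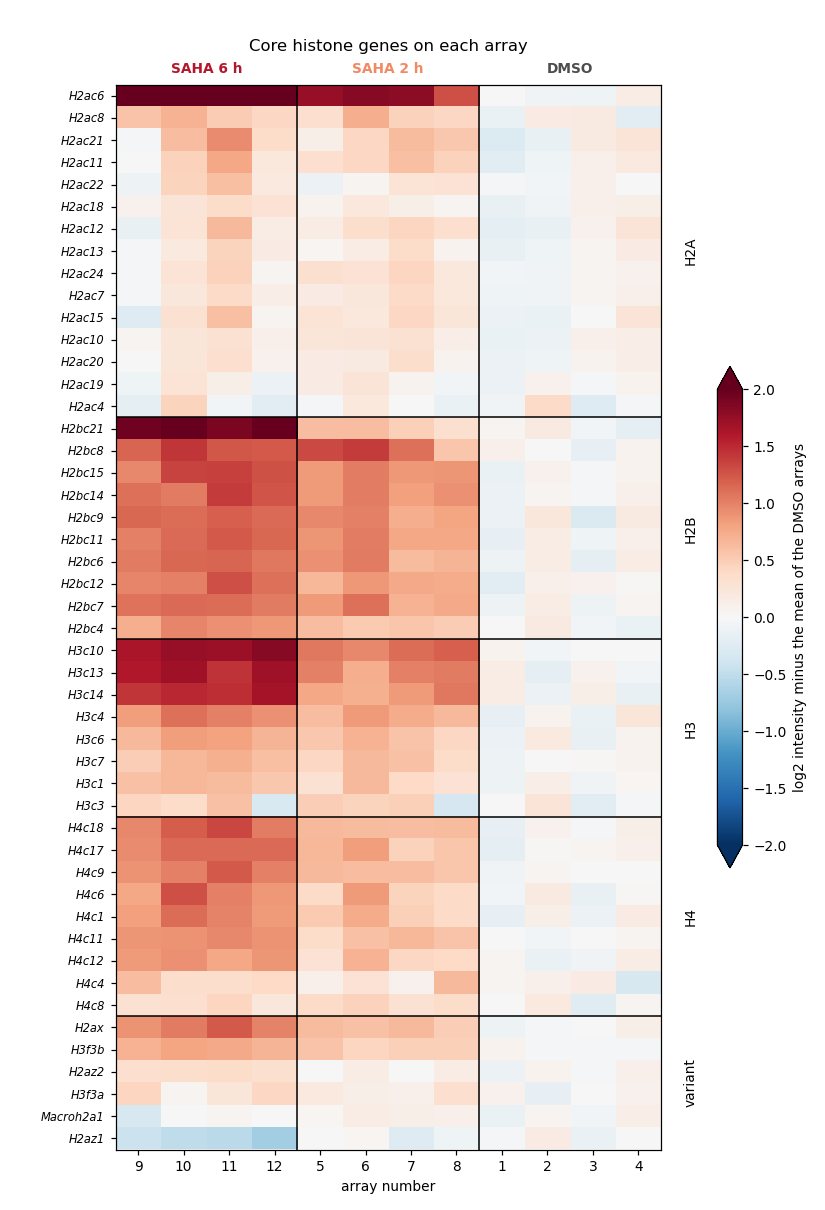
Heat map of the 48 core histone genes (rows, by class and by change at 6 h) on the 12 arrays (columns, numbered as in the deposited table). Colour is the normalized log2 intensity minus that gene's mean over the DMSO arrays, and values past 2 take the end colour. Most H2B, H3 and H4 rows are red on the SAHA arrays, most H2A rows are pale, and H2az1 is blue on the 6 h arrays.

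The H2A genes are described first, since they hold both the largest change and the smallest. H2ac6 (formerly Hist1h2ac) had log2 intensities of 7.91, 8.48, 8.45 and 8.37 on the 4 arrays of the 6 h group. On the 2 h arrays H2ac6 read 6.75, 6.83, 6.80 and 6.30, and on the DMSO arrays 5.02, 4.93, 4.93 and 5.15. The 3 groups did not overlap, and no DMSO array detected the probe. Against the detection limit, H2ac6 was at least 4.90-fold higher at 6 h and at least 1.58-fold higher at 2 h. The limma tests (adjusted p = 5.20e-11 and 1.53e-07) are of the fitted changes, which use undetected DMSO values, and not of these bounds. H2ac6 passed the filter through the SAHA arrays alone (8 of 12), so it could only be a member by being higher there.

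H2ac8 was dim but detected on every array. Its values were 6.83, 6.96, 6.77 and 6.67 at 6 h, 6.59, 6.98, 6.72 and 6.67 at 2 h and 6.13, 6.42, 6.44 and 6.04 in DMSO. Every SAHA array lay above every DMSO array, and the log2 change was 0.55 ± 0.11 (SE) at 6 h (limma adjusted p = 2.92e-04) and 0.48 ± 0.11 at 2 h (limma adjusted p = 0.00135). H2ac18, of which H2ac19 is a close copy, read 12.52, 12.69, 12.81 and 12.73 at 6 h, 12.51, 12.65, 12.56 and 12.49 at 2 h and 12.29, 12.36, 12.54 and 12.55 in DMSO. These groups overlapped at both times. Its log2 change was 0.25 ± 0.08 at 6 h (limma adjusted p = 0.00974) and 0.11 ± 0.08 at 2 h, which did not pass. The direction for H2ac18 rests on the choice of probe: its other kept probes had log2 changes of -1.13 and 0.13 at 6 h, and the mean of the 3 probes was called lower, at -0.25.

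H2ac11 and H2ac21 rose at 6 h by 0.36 ± 0.14 and 0.47 ± 0.18 on the log2 scale, with groups that overlapped. The remaining 10 H2A genes had log2 changes of 0.00 to 0.29 at 6 h and did not pass. H2ac4 had the smallest, with an interval of -0.33 to 0.33. At 2 h H2ac24, H2ac7 and H2ac10 rose as well, by 0.31 ± 0.09, 0.25 ± 0.09 and 0.24 ± 0.08. None of these 3 passed in the authors' normalized values, with or without the replicate number as a block (blocked adjusted p = 0.254, 0.378 and 0.49), whereas H2ac12 and H2ac21 passed there with the block (adjusted p = 0.0125 and 0.00122). Only H2ac6 differed between 6 h and 2 h among the 15 H2A genes in the unblocked fit. With the block H2ac13 and H2ac18 were also called higher at 6 h than at 2 h, by 0.20 and 0.15.

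The H2A counts moved with single arrays and with the settings. Array 9 was the lowest of the 6 h arrays for 12 of the 15 H2A genes and array 11 the highest for 11. Without array 9 the count of H2A genes called higher at 6 h was 13 in place of 5, and without array 1, 2, 10 or 11 it was 3. At 2 h it was 9 in place of 6 without array 4, and 4 without array 1, 2 or 7. With a trended and robust variance 11 H2A genes were called at 6 h, with no background correction 8, and at an adjusted p under 0.01 or without scaling 3. In the authors' normalized values 6 were called higher at 6 h, and with the replicate number as a block 11. At 2 h the count was 10 with median scaling, 9 with no background correction and 2 at an adjusted p under 0.01. The probes of H2ac10, H2ac13, H2ac20, H2ac24 and H2ac7 had raw intensities of 23021 to 45392, while the brightest probe of any array read 41507 to 57980. Dimmer kept probes of H2ac10, H2ac13, H2ac20 and H2ac7 had log2 changes of 0.24, 0.18, 0.16 and 0.19 at 6 h and did not pass. The probe of the variant gene H3f3b, which rose by 0.73 at 6 h, had raw intensities of 18624 to 37290. Whether such bright probes still respond in proportion to the RNA was not tested.

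**Figure D2:**
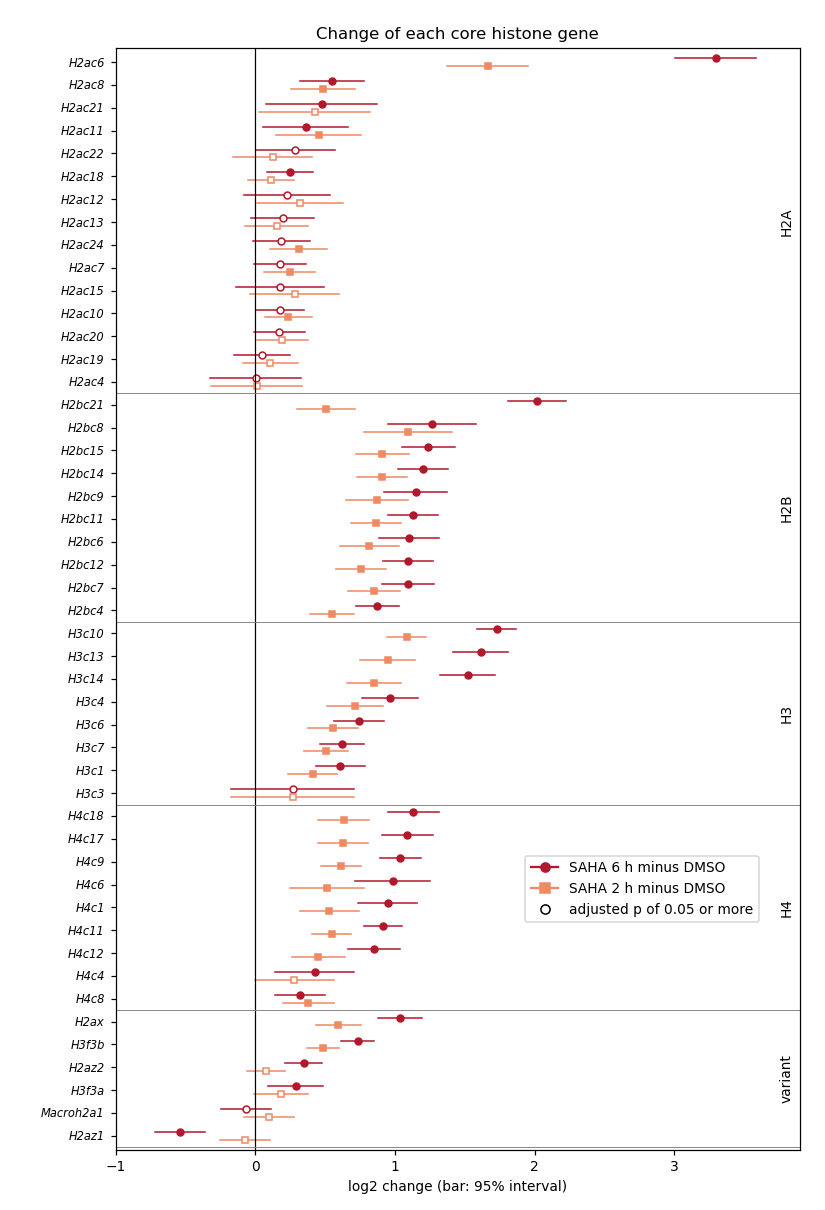
Log2 change of each core histone gene, with circles for SAHA 6 h minus DMSO and squares for SAHA 2 h minus DMSO. Bars are 95% intervals, and open symbols had an adjusted p of 0.05 or more. All H2B genes lie right of 0 at both times, and most H2A intervals reach 0 or end close to it. H2ac6 and H2bc8 were undetected in DMSO, so their plotted values are fitted ones and not bounds.

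All 10 H2B genes rose at both times. H2bc21 (formerly Hist2h2be), in the Hist2 cluster, read 10.24, 10.52, 10.18 and 10.31 at 6 h, 8.91, 8.91, 8.77 and 8.61 at 2 h and 8.35, 8.48, 8.24 and 8.11 in DMSO. The 3 groups followed each other without overlap. Its log2 change was 2.02 ± 0.10 at 6 h, or 4.05-fold (limma adjusted p = 2.51e-10), and 0.50 ± 0.10 at 2 h (limma adjusted p = 4.84e-04). A second probe of H2bc21 gave 0.75 at 6 h and 0.68 at 2 h, so the direction is the same by both probes and the size at 6 h is not. RefSeq gives H2bc21 a span of 2667 bases, where all other replication-dependent members but H2bc4 and H2bc6 span 383 to 911 bases.

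H2bc14 read 10.35, 10.29, 10.65 and 10.52 at 6 h, 10.11, 10.28, 10.08 and 10.17 at 2 h and 9.14, 9.30, 9.22 and 9.36 in DMSO. Both SAHA groups lay above DMSO, with log2 changes of 1.20 ± 0.08 and 0.91 ± 0.08, and the 6 h arrays lay above the 2 h arrays. H2bc15 read 10.07, 10.46, 10.48 and 10.39 at 6 h, 9.97, 10.14, 9.98 and 10.00 at 2 h and 8.99, 9.21, 9.08 and 9.18 in DMSO. It rose by 1.24 ± 0.09 at 6 h and 0.91 ± 0.09 at 2 h, and its 6 h and 2 h arrays overlapped. H2bc8 was undetected on all DMSO arrays and, like H2ac6, passed the filter through the SAHA arrays alone (7 of 12). Its values were 6.46, 6.71, 6.54 and 6.52 at 6 h and 6.61, 6.69, 6.40 and 5.84 at 2 h, of which 3 were detected, against 5.39, 5.28, 5.13 and 5.36 in DMSO. H2bc8 was at least 1.46-fold higher at 6 h and at least 1.30-fold higher at 2 h.

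The other 6 H2B genes, H2bc4, H2bc6, H2bc7, H2bc9, H2bc11 and H2bc12, rose by 0.87 to 1.15 on the log2 scale at 6 h and by 0.55 to 0.87 at 2 h. In each of these 6 every SAHA array was above every DMSO array. H2bc4, which rose least, has a RefSeq span of 8282 bases, and H2bc6 one of 37455 bases, since each has annotated transcripts that run far past the coding exon.

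H3 genes split by size of change. H3c10 (formerly Hist1h3h) read 13.08, 13.20, 13.17 and 13.29 at 6 h, 12.51, 12.41, 12.58 and 12.66 at 2 h and 11.52, 11.41, 11.46 and 11.44 in DMSO. The groups stood clear of each other, and the log2 change was 1.73 ± 0.06 at 6 h, or 3.31-fold (limma adjusted p = 2.20e-11), and 1.08 ± 0.06 at 2 h (limma adjusted p = 7.30e-09). A dimmer probe of H3c10 gave 0.92 at 6 h and 0.71 at 2 h. H3c13, in the Hist2 cluster, read 13.86, 13.95, 13.71 and 13.95 at 6 h, 13.26, 12.98, 13.27 and 13.30 at 2 h and 12.41, 12.07, 12.34 and 12.20 in DMSO. Its neighbour H3c14 read 13.49, 13.56, 13.54 and 13.72 at 6 h, 12.84, 12.77, 12.92 and 13.12 at 2 h and 12.20, 11.95, 12.18 and 11.90 in DMSO. Both rose, H3c13 by 1.61 ± 0.09 at 6 h and 0.95 ± 0.09 at 2 h, and H3c14 by 1.52 ± 0.09 and 0.85 ± 0.09. These 3 genes rose further between 2 h and 6 h, by 0.64, 0.67 and 0.67. A dimmer probe of H3c14, undetected in DMSO, had fitted changes of 0.85 at 6 h and 0.54 at 2 h. The other called H3 genes, H3c4, H3c6, H3c7 and H3c1, rose by 0.61 to 0.96 at 6 h. H3c6 did not pass for 6 h against 2 h, and passed with the replicate block, at 0.16 (adjusted p = 0.0272). H3c3 was dim, was detected on 7 of 12 arrays and did not pass, at 0.27 ± 0.20 at 6 h and 0.27 ± 0.20 at 2 h (adjusted p = 0.0456 at 2 h with the replicate block).

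H4 genes all encode the same protein, the histone named in the study's title. H4c9 read 9.29, 9.40, 9.62 and 9.41 at 6 h, 9.05, 9.02, 9.01 and 8.95 at 2 h and 8.32, 8.44, 8.41 and 8.40 in DMSO. H4c11 read 8.99, 9.01, 9.08 and 9.02 at 6 h, 8.48, 8.70, 8.78 and 8.68 at 2 h and 8.10, 8.06, 8.12 and 8.17 in DMSO. H4c18 read 8.82, 9.08, 9.20 and 8.88 at 6 h, 8.51, 8.50, 8.48 and 8.50 at 2 h and 7.69, 7.94, 7.84 and 7.97 in DMSO. In all 3 the groups were ordered 6 h above 2 h above DMSO with no overlap. Their log2 changes were 1.04 ± 0.07, 0.91 ± 0.06 and 1.13 ± 0.08 at 6 h (limma adjusted p = 4.74e-09, 1.22e-08 and 2.26e-08) and 0.61 ± 0.07, 0.55 ± 0.06 and 0.63 ± 0.08 at 2 h. H4c17, H4c1, H4c6 and H4c12 rose by 0.85 to 1.09 at 6 h and by 0.45 to 0.63 at 2 h, and the other kept probes of H4c6, H4c12 and H4c18 had changes of 0.78 to 0.96 at 6 h. H4c8 rose by 0.32 ± 0.08 at 6 h and 0.38 ± 0.08 at 2 h. H4c4 rose at 6 h by 0.43 ± 0.13 and did not pass at 2 h, and 1 of its 4 DMSO arrays detected it.

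Between 2 h and 6 h of SAHA 22 of 42 replication-dependent genes rose further and none was called lower, while 34.4% of all genes were called higher and 62.7% were called. The 22 were 9 of 10 H2B, 7 of 9 H4, 5 of 8 H3 and 1 of 15 H2A genes. Leaving out 1 array moved the H3 count to 3 (without array 5, 8, 10 or 11), the H2B count to 6 (without array 7, 8, 10 or 11) and the H2A count to 3 (without array 9). H3c1 kept its call in 7 of 25 alternatives. The median was 0.22, beside 0.04 over all genes. In 16 of the 42 the 6 h arrays did not overlap the 2 h arrays and lay above them, against 30.2% of all genes. The count of 22 depends on the scaling between arrays. With each array scaled to its median it was 8, and without scaling between arrays it was 3, where the median of all genes itself moved to -0.08 and -0.20. Without scaling, the steps of H2ac6, H2bc21 and H3c14 still passed, at 1.40, 1.26 and 0.42, while those of H3c13 (0.41) and H3c10 (0.37) did not. In the scaled values the other kept probes of H2bc21, H3c10 and H3c14 had steps of 0.06, 0.21 and 0.31 that did not pass.

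H2A and H2B genes often stand head to head, so that a single stretch of DNA holds the starts of both. RefSeq's mouse table (GRCm38.p6) has 13 such pairs whose starts lie less than 300 bases apart, and both genes were measured in 7. At 6 h the H2B gene rose in 7 of 7 and the H2A gene in 3 of 7. The H2A count moved with the settings. Without array 9 the genes H2ac7, H2ac12, H2ac15 and H2ac20 were also called higher at 6 h. In the authors' values with the replicate block H2ac7, H2ac12 and H2ac20 were. Without array 1, 2, 10 or 11 H2ac11 lost its call. At 2 h the H2B gene rose in 7 of 7 and the H2A gene in 4 of 7. In 5 of the 7 pairs both genes were detected in DMSO, a restriction chosen after the data were seen. In these 5 the H2B gene had the larger change at each time, and its 95% interval lay wholly above that of the H2A gene in 5 at 6 h and in 2 at 2 h. H2ac20 and H2bc21 were farthest apart, with log2 changes of 0.17 for the H2A gene and 2.02 for the H2B gene at 6 h (0.75 by the other H2bc21 probe). The remaining pairs hold a gene known only by a lower bound. H2bc8 rose by at least 0.55 on the log2 scale at 6 h and at least 0.37 at 2 h, and these bounds lie inside the intervals of H2ac8 (0.32 to 0.78 and 0.26 to 0.71), so the pair was not ranked. H2ac6 rose by at least 2.29 at 6 h, above the interval of its neighbour H2bc4 (0.72 to 1.03), while its bound of 0.66 at 2 h lies inside that of H2bc4 (0.39 to 0.70).

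**Figure D3:**
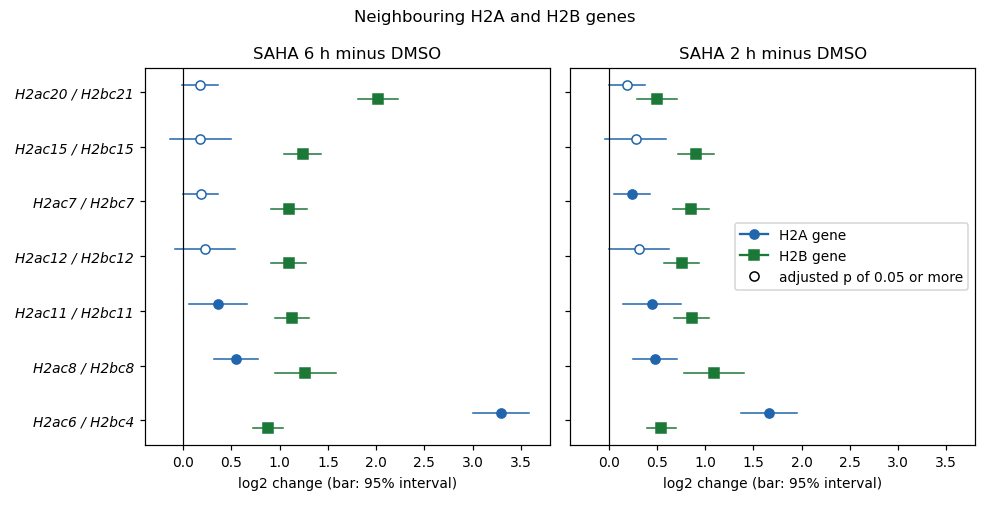
Log2 change of the H2A gene (circles) and the H2B gene (squares) in the 7 head-to-head pairs, for SAHA 6 h minus DMSO on the left and SAHA 2 h minus DMSO on the right. Bars are 95% intervals, and open symbols had an adjusted p of 0.05 or more. H2ac6 and H2bc8 were undetected in DMSO, so they are drawn at fitted values that give no order within their pairs. In the other 5 pairs the square lies right of the circle at both times.

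The shared stretches of 4 pairs are shown: those of both genes undetected in DMSO (H2ac6 and H2bc8), and those of H2ac20 and H2ac12, whose H2B neighbours had the larger change. Each runs from the base before the start of the H2A gene back to the start of the H2B gene, read 5′ to 3′ towards the H2A gene on the minus strand (RefSeq, GRCm38.p6). Capitals mark 3 motifs found on either strand: TATAAA (the TATA box, TTTATA on the other strand), CCAAT (the CCAAT box, ATTGG on the other strand) and ATGCAAAT (the octamer, ATTTGCAT on the other strand). The stretches lie at chr13:23683960-23684198 (H2ac6 and H2bc4), chr3:96220881-96221071 (H2ac20 and H2bc21), chr13:22035644-22035820 (H2ac12 and H2bc12) and chr13:23571221-23571399 (H2ac8 and H2bc8).
H2ac6/H2bc4: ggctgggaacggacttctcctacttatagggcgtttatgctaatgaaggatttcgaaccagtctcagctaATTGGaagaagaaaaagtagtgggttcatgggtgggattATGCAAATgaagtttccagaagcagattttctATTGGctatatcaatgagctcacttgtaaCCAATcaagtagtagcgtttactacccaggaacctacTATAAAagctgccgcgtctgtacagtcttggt
H2ac20/H2bc21: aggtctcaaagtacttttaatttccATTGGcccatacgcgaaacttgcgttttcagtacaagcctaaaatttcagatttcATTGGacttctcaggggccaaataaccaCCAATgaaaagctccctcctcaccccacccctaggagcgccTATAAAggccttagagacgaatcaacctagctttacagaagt
H2ac12/H2bc12: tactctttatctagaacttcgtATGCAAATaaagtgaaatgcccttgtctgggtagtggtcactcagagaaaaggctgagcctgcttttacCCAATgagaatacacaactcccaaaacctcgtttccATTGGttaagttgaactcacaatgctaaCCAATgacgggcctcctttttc
H2ac8/H2bc8: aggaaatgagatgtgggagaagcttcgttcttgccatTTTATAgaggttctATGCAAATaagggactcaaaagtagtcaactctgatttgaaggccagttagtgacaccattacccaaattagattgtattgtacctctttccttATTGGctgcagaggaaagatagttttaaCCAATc
All 4 hold CCAAT boxes (3, 3, 3 and 2 of them), which is the site known to bind the factor NF-Y. The octamer, known to bind Oct-1 at H2B promoters, is present in all but the stretch of H2ac20 and H2bc21. The longer window of 250 bases before the start of H2ac20 does hold an octamer.

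Single upstream windows of 150 bases are shown for the most changed H3 gene and for an H4 gene, both on the plus strand of chromosome 13 (RefSeq, GRCm38.p6), at chr13:21717478-21717627 and chr13:21734884-21735033, with the same capitals.
H3c10: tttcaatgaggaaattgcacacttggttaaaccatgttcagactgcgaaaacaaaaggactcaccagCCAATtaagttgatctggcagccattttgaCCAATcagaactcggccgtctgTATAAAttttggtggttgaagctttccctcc
H4c11: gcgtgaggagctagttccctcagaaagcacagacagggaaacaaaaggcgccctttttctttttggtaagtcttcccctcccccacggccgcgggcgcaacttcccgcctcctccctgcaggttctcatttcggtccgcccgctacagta
H3c10 holds 2 CCAAT boxes and a TATA box, while H4c11 has no match to the 3 motifs in this window. In the 250 bases before the start, 31 of 39 promoters of 38 replication-dependent members held a CCAAT box (79.5%), against 33.8% of 32851 mouse promoters. A TATA box was present in 18 of them (46.2%, against 12.4%) and the octamer in 9 (23.1%, against 1.6%). By class the CCAAT box was in 15 of 15 H2A promoters, 9 of 9 for H2B, 5 of 6 for H3 and 2 of 9 for H4. The 9 H2B promoters belong to 8 genes, with H2bc6 counted more than once. No promoter of H2bc4, H2bc21, H3c1 or H3c7 was among those counted. The octamer was in 5 of 15 for H2A and 4 of 9 for H2B, and in 0 of 6 for H3 and 0 of 9 for H4. The TATA box was in 6 of 15 for H2A, 4 of 9 for H2B, 2 of 6 for H3 and 6 of 9 for H4. Because the paired stretches overlap, some of these boxes are counted for both genes, and a match in letters is a description and not a bound site.

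Variant genes moved in both directions. At 6 h 4 of 6 rose, 1 was lower and 1 did not pass, with a median of 0.32. At 2 h 2 of 6 rose and 4 did not pass, with a median of 0.14. The share that rose was 66.7% at 6 h and 33.3% at 2 h, beside 38.9% and 27.8% of all genes.

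H2ax encodes H2A.X, the variant that is phosphorylated at DNA breaks. It read 12.35, 12.50, 12.69 and 12.44 at 6 h, 12.09, 12.05, 12.11 and 11.96 at 2 h and 11.37, 11.42, 11.47 and 11.58 in DMSO. The 3 groups did not overlap, and H2ax rose by 1.04 ± 0.07 at 6 h (limma adjusted p = 1.60e-08) and 0.59 ± 0.07 at 2 h (limma adjusted p = 1.17e-05). H2ax was the variant with the largest change, and its gene is known to give a stem-loop mRNA as well as a polyadenylated one.

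H3f3b and H3f3a both encode H3.3, which replaces H3 outside replication, at active genes among other places. H3f3b read 15.05, 15.14, 15.11 and 15.04 at 6 h, 14.93, 14.78, 14.83 and 14.82 at 2 h and 14.43, 14.32, 14.33 and 14.34 in DMSO. It rose by 0.73 ± 0.05 at 6 h (limma adjusted p = 1.83e-08) and 0.49 ± 0.05 at 2 h (limma adjusted p = 3.15e-06), with no overlap between any groups. H3f3a read 13.32, 12.94, 13.13 and 13.30 at 6 h, 12.98 to 13.22 at 2 h and 12.97, 12.72, 12.88 and 12.97 in DMSO. Its 6 h arrays overlapped the DMSO arrays, with a change of 0.29 ± 0.09 at 6 h (limma adjusted p = 0.00992) and 0.18 ± 0.09 at 2 h, which did not pass (adjusted p = 0.0138 with the replicate block). A dimmer probe of H3f3a gave 1.36 at 6 h and 0.41 at 2 h. Both genes encode the same protein, and no test of the difference between them was made.

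H2az1 and H2az2 encode 2 forms of H2A.Z, a variant found around the starts of genes. H2az1 read 12.34, 12.27, 12.24 and 12.08 at 6 h, 12.78, 12.82, 12.51 and 12.68 at 2 h and 12.74, 12.93, 12.65 and 12.78 in DMSO. All 4 arrays of the 6 h group lay below all others, whereas the 2 h and DMSO arrays overlapped. In the main fit H2az1 was the only one of the 48 members called lower. Its log2 changes were -0.54 ± 0.08 at 6 h (limma adjusted p = 4.13e-05) and -0.47 ± 0.08 for 6 h against 2 h (limma adjusted p = 2.73e-04). At 2 h its change was -0.08 ± 0.08 and did not pass, with an interval of -0.26 to 0.10. H2az2 read 11.25, 11.26, 11.28 and 11.23 at 6 h, 10.91, 11.06, 10.90 and 11.06 at 2 h and 10.79, 10.97, 10.86 and 11.01 in DMSO. It rose at 6 h by 0.35 ± 0.06 (limma adjusted p = 1.78e-04), with every 6 h array above the other 8, and had a change of 0.08 ± 0.06 at 2 h that did not pass. The 2 H2A.Z genes thus went opposite ways at 6 h.

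Macroh2a1 encodes macroH2A1, a large H2A variant of silent chromatin. It read 11.20, 11.51, 11.57 and 11.51 at 6 h, 11.55, 11.66, 11.62 and 11.62 at 2 h and 11.38, 11.57, 11.46 and 11.64 in DMSO. Array 9 was low, the groups overlapped, and the log2 change was -0.07 ± 0.08 at 6 h (interval -0.24 to 0.11) and 0.10 ± 0.08 at 2 h (interval -0.08 to 0.28). The other kept probes of this gene, which has 14 RefSeq transcripts, gave -0.17 and 0.08 at 6 h. In a fit over all kept probes the first of these was called lower at 6 h (limma adjusted p = 0.0203). It was also called lower for 6 h against 2 h, at -0.28 (limma adjusted p = 0.00129).

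**Figure D4:**
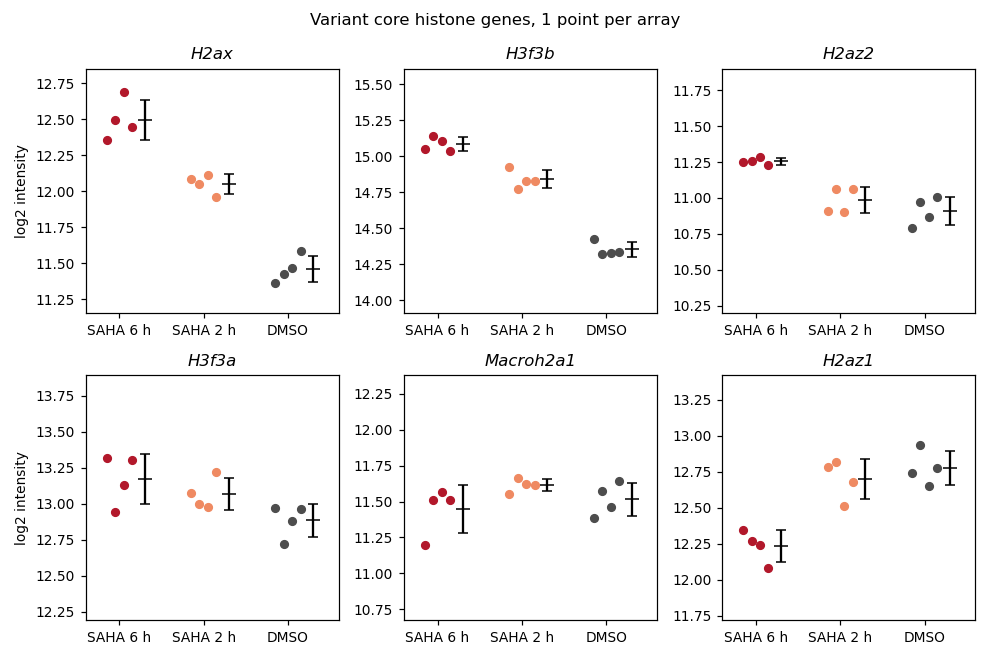
Normalized log2 intensity of the 6 variant genes, 1 coloured point per array, for SAHA 6 h, SAHA 2 h and DMSO, with the mean and SD of the 4 arrays beside the points. Each panel has its own position on the axis and the same span. H2ax and H3f3b are highest at 6 h and lowest in DMSO without overlap, while H2az1 is lower at 6 h alone.

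The 150 bases before the starts of H3f3b and H2az1 are shown for the variants that moved in opposite directions, at chr11:116024505-116024654 (minus strand) and chr3:137864337-137864486 (plus strand; RefSeq, GRCm38.p6), with capitals as above.
H3f3b: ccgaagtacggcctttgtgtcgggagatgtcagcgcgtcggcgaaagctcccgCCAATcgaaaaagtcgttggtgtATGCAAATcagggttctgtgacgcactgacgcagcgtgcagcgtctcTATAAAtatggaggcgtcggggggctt
H2az1: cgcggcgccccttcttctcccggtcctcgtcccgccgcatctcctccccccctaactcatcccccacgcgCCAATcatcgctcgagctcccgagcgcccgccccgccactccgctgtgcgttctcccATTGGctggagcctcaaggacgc
H3f3b holds all 3 motifs (1 of each). H2az1 holds 2 CCAAT boxes and neither of the other motifs. Over the 5 variant promoters counted, which leave out H2ax, the CCAAT box was in 4 and the octamer in 1.

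Histone genes with symbols outside the rule were measured in 3 of 9 cases, all named here. H2aj, an H2A variant, rose by 1.01 ± 0.08 at 6 h and 0.69 ± 0.08 at 2 h. H2aw, an H2A gene of the smallest of the clusters, was undetected in DMSO and was at least 3.25-fold higher at 6 h, after being detected on 2 of 4 arrays at 2 h. H2aw passed the filter through the SAHA arrays alone, so it could only be measured by being higher there. Cenpa, the H3 variant of centromeres, was lower, with log2 changes of -1.62 ± 0.07 at 6 h (limma adjusted p = 6.07e-11) and -0.25 ± 0.07 at 2 h.

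The proteins that make, process and carry histones were looked at beside the genes themselves. Of 13 measured genes for transcription and processing of histone mRNA, 5 rose and 5 were lower at 6 h, and 6 rose and 4 were lower at 2 h. All genes were called higher in 38.9% and lower in 38.5% of cases at 6 h, and in 27.8% and 30.7% at 2 h, and the list's shares at 6 h do not stand apart from these. Snapc1 rose by 1.92 ± 0.13 at 6 h, while Srrt (ARS2, a cap-complex partner) was lower, at -1.14 ± 0.06. Ncbp1 (the cap-binding protein), Sympk (a scaffold of 3′ end cleavage) and Lsm10 (U7 snRNP) rose by 0.73 ± 0.08, 0.64 ± 0.07 and 0.42 ± 0.05, and Coil (coilin) was lower, at -0.69 ± 0.09. Npat, the coactivator of replication-dependent histone genes, rose at 2 h by 0.53 ± 0.18 and had a change of 0.35 ± 0.18 at 6 h that did not pass. Slbp had 1 probe, detected on 0 of 12 arrays.

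Among 25 measured histone chaperones and importers, 11 rose and 10 were lower at 6 h, and 8 rose and 8 were lower at 2 h, which is near the shares of all genes (38.9% higher and 38.5% lower at 6 h, 27.8% and 30.7% at 2 h). Chaf1b, a subunit of the CAF-1 complex that loads H3 and H4 behind the replication fork, rose by 0.86 ± 0.07 at 6 h and 0.40 ± 0.07 at 2 h. Asf1b, which hands H3 and H4 to CAF-1, rose by 0.97 ± 0.08 and 0.60 ± 0.08. Hat1, which acetylates new H4, rose by 0.47 ± 0.05 and 0.24 ± 0.05, and Aplf by 1.06 ± 0.06 and 0.58 ± 0.06. Set, an inhibitor of histone acetylation, was lower at 6 h, at -0.74 ± 0.08. Hjurp, the chaperone that deposits the Cenpa protein, was lower, at -1.52 ± 0.08 at 6 h and -1.38 ± 0.08 at 2 h, in the same direction as Cenpa.

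Of 19 measured genes of the complexes that exchange H2A.Z (SRCAP, TIP60/p400 and INO80), 12 were lower and 3 rose at 6 h, and 13 were lower and 1 rose at 2 h. All genes were called lower in 38.5% of cases at 6 h and 30.7% at 2 h. The list's medians were -0.64 at 6 h and -0.47 at 2 h. Morf4l1, Yeats4, Kat5 (the TIP60 acetyltransferase), Dmap1 and Ruvbl1 were lower at 6 h, with log2 changes of -1.31 ± 0.06, -1.11 ± 0.08, -1.05 ± 0.09, -0.92 ± 0.06 and -0.87 ± 0.06. Ino80 was undetected on all arrays at 6 h and at 2 h, and was at least 1.68-fold lower at 6 h. Ino80 passed the filter through the DMSO arrays alone, so it could only be measured by being higher there. The counts and medians of this list include Ino80.

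Of 36 measured S phase and DNA replication genes, 12 rose and 13 were lower at 6 h, and 8 rose and 15 were lower at 2 h, with medians of -0.01 and -0.06. The shares over all genes were 38.9% higher and 38.5% lower at 6 h, near those of the list, and 27.8% and 30.7% at 2 h. Tk1, Rrm1 and Rrm2, which supply nucleotides for replication, were lower at 6 h, with log2 changes of -2.41 ± 0.06, -1.14 ± 0.07 and -1.85 ± 0.13. E2f2, Orc6 and Rfc1 rose by 1.41 ± 0.10, 0.87 ± 0.06 and 0.74 ± 0.05. Pcna, the replication clamp, rose by 0.31 ± 0.13 at 6 h and had a change of -0.05 ± 0.13 at 2 h that did not pass. Whether the share of cells in S phase differed between the groups was not tested.

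**Figure D5:**
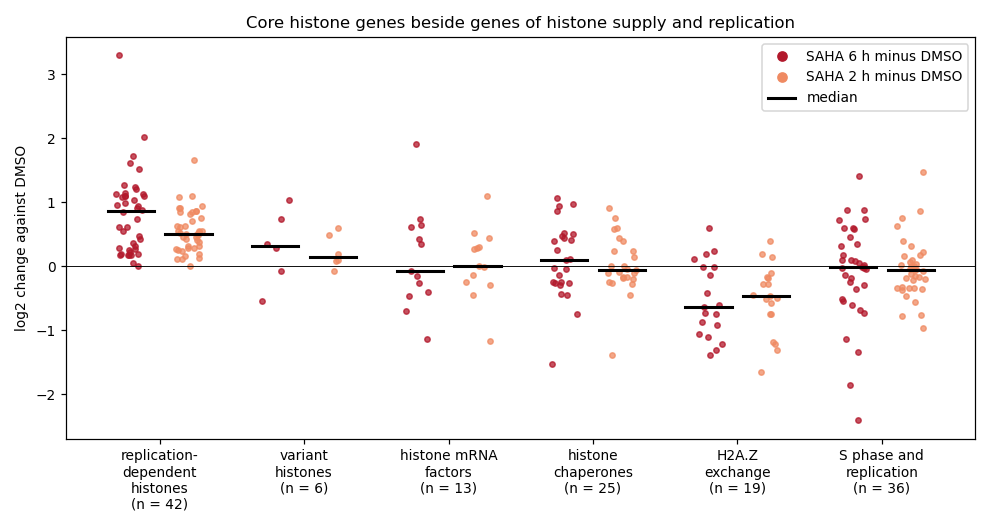
Log2 change against DMSO of each measured gene in 6 lists, for SAHA 6 h (left of each pair) and SAHA 2 h (right), with a bar at the median. The replication-dependent histone genes have medians of 0.86 and 0.51 and no value below 0, the H2A.Z exchange list has medians of -0.64 and -0.47, and the histone mRNA, chaperone and S phase lists lie on both sides of 0. H2ac6 and H2bc8, undetected in DMSO, are drawn at fitted values.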

How the data were processed

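Bead intensities and a detection p-value per probe were deposited by the authors for 12 Illumina arrays, not normalized, per the file headers. A second deposited table holds the authors' normalized intensities, used here as an alternative, and its method is not given in the sources used here. RNA (200 ng) was labelled with oligo(dT) priming, per the labels' protocols. The raw columns name groups but not which sample they are. Probes were background-corrected from the detection p-values (normexp, offset 16), quantile-normalized and log2-transformed in limma 3.58.1 (R 4.3.3). Of 45281 probes, 16431 had a detection p under 0.01 on at least 4 of 12 arrays, and the brightest kept probe stood for each of 9153 genes. All 3 groups were fitted together, with moderated two-sided tests and Benjamini-Hochberg adjustment over all genes. Slide and scan date were not available for use here, and arrays are numbered in blocks by group, so array order and group cannot be told apart.

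Members and gene lists were chosen with earlier results of these data known. Named with values on every array were all variant members, the 3 replication-dependent genes of each class with the smallest p at 6 h and those undetected in a whole group. In each list the named genes were the 6 with the smallest p at 6 h among those called, with Slbp, Npat, Pcna and Cenpa. The same rule was extended to the H2A.Z exchange list. "At least" folds set the brighter group against the dimmest detected signal of the dimmer group's arrays. Replicate numbers exist for the authors' table only. Deviations of same-numbered samples correlated at 0.18 to 0.36 for 2 h against DMSO and 0.15 to 0.35 for 6 h against 2 h. The numbers were taken to pair those samples. For 6 h against DMSO the correlations were lower, at -0.04 to 0.13. Numbers that pair the other samples pair these as well, so the block was run as an alternative for all 3 comparisons. Alternatives covered background, scaling, probe choice, filter, variance, threshold, the authors' values, the replicate block and leaving out each array. The fit was tested on simulated data with 50 planted changes of each size. Of those of 1.25-fold it found 24 at 2 h and 26 at 6 h, and of those of 2-fold all 50. Protein and probe sequences were not used here.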

Additional observations from a re-analysis of the deposited data

Results flagged for a closer look

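Single arrays stood far from the other 3 of their group in 8 of the 144 sets of 4 values formed by 48 genes and 3 groups, where chance gives about 7.2. After 6 h array 9 was low for H4c17 (8.44, others 8.62 to 8.63) and Macroh2a1 (11.20, others 11.51 to 11.57) and high for H4c4 (6.53, others 6.24 to 6.29). After 2 h array 8 was low for H2ac6 (6.30, others 6.75 to 6.83) and H3c3 (5.61, others 6.38 to 6.43). Array 6 was low for H3c13 (12.98, others 13.26 to 13.30) and high for H4c6 (9.07, others 8.61 to 8.67). In DMSO array 1 was high for H3f3b (14.43, others 14.32 to 14.34).

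The change at 6 h differed from that at 2 h in 26 members, by the test of 6 h against 2 h (limma). H2A, H2A.X and H2A.Z differences were 1.63 for H2ac6, 0.44 for H2ax, 0.27 for H2az2 and -0.47 for H2az1. H2B differences were 1.51 for H2bc21, 0.34 for H2bc12, 0.33 for H2bc15 and H2bc4, 0.29 for H2bc14, 0.28 for H2bc6 and H2bc9, 0.27 for H2bc11 and 0.24 for H2bc7. H3 differences were 0.67 for H3c13 and H3c14, 0.64 for H3c10, 0.25 for H3c4 and H3f3b and 0.20 for H3c1. H4 differences were 0.50 for H4c18, 0.47 for H4c6, 0.46 for H4c17, 0.42 for H4c1 and H4c9, 0.40 for H4c12 and 0.37 for H4c11.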

How the results depend on the processing

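Among the settings run, a replication-dependent gene was called lower in 2 cases: H2ac24 for 6 h against 2 h without array 11, and H2ac18 when its probes were averaged or the most variable one was taken. The log2 change of H2ac18 was then -0.25 and -1.13 at 6 h, -0.25 with the most variable probe at 2 h, and -0.25 and -0.89 for 6 h against 2 h. Without normalization between arrays 3 of 42 replication-dependent genes (22 in the report) and 2 of 6 variants (4) differed between 6 h and 2 h, with medians of -0.013 and -0.076, and 3 variants (5) were called at 6 h. The same setting called 3470 of all genes at 2 h (5360) and 3517 for 6 h against 2 h (5743), and turned the 6 h against 2 h difference of H3c1 to -0.062, Lsm10 to -0.10 and Hat1 to -0.021. With median scaling 8 replication-dependent genes differed between the times. The cause was not tested. Leaving out 1 array gave 29 to 39 replication-dependent genes at 6 h, 29 to 34 at 2 h and 17 to 23 between the times. It gave 5, 2 and 4 variants. Over all genes it gave 6882 to 7119, 4975 to 5417 and 5403 to 5755. With the replicate number as a block in the authors' values, 37, 31 and 25 replication-dependent genes, 5, 3 and 4 variants, and 7301, 5877 and 6148 of all genes were called. For 6 h against DMSO, where same-numbered samples correlated least, 11 H2A genes rose with the block and 6 without it in the authors' values. Of 144 calls 128 were the same with the block. Precision is limited by 4 arrays a group (median SE 0.08) and by dim probes near the detection limit.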
